A study of Mus musculus with 55 samples.

Results

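Of the 270030 autosomal CpGs with deposited methylation values in mouse liver, 55022 lay inside a protein-coding gene, over 1 kb from every protein-coding start site, and had at most 2 other CpGs of the table within 200 bp on either side. The rule that selects these members uses position alone, at mm9 coordinates and with the GENCODE vM1 genes. The table itself holds no CpG that was under 10% methylated in all libraries, since the authors removed those, so methylation decided which CpGs could be members or count as neighbours. They comprised 43185 CpGs in introns, 8748 in coding exons, 2334 in untranslated exons and 755 in exons of non-coding transcripts of the same genes. Of the untranslated-exon CpGs, 2208 lay on the 3′ side and 126 on the 5′ side. Within 200 bp, 11023 members had no other CpG of the table, 21828 had 1 and 22171 had 2. The table is not the genome, however. In the mm9 sequence the median member had 6 other CpGs within 200 bp, and 3461 members (6.29%) had at most 2. They are therefore called sparsely measured gene-body CpGs here, since most of them are not isolated in the DNA itself.

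Methylation of genomic DNA was measured by reduced representation bisulfite sequencing (RRBS), which cuts DNA with a restriction enzyme and reads cytosines near the cuts after bisulfite treatment, in livers of mice labelled C57BL/6, which the study's methods name as C57BL/6J. The labels give no allele or treatment for any group, and per the methods the mice of the initial RRBS experiments were on a chow with fat from coconut oil. Livers came from 5 embryos late in gestation (E18.5), from 9 pups on the first postnatal day (P1) and from 10 adults aged 9 wk, which form the 3 groups. For its discovery RRBS experiment the study's methods list E18.5 and male 9 wk mice, and no P1 group. Cohort, sex and diet of these P1 livers are thus unknown, and age cannot be told apart from cohort or sex. The question was how DNA methylation differs between the liver before birth, just after birth and in the adult.

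In mammals most CpGs inside transcribed genes carry methyl groups, while CpG-rich start sites are mostly free of them. Gene-body methylation is laid down by the DNMT3 enzymes, which are guided to transcribed genes by marks on histone H3, and it is usually high in exons. Low or intermediate methylation inside introns is a known property of many enhancers, which often gain or lose methylation as a tissue matures. The liver before birth is also a site of blood formation, and its blood-forming cells leave around birth. In these bulk samples, a change in the mix of cells and a change within each cell cannot be told apart.

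To show what such positions look like, windows of 30 bases around 13 members are printed from the forward strand of the mm9 genome, with the measured CpG in capitals. They show, for each class, the CpGs with the largest and next largest gain and loss between E18.5 and 9 wk under the selection rule given with the methods, and last the CpG with the largest gain among genes for hepatocyte enzymes and secreted proteins. Each window occurs 1 time in mm9, counting both strands.
Myh14, intron, gain, chr7:51869576-51869605: ctccagttaagcccCGcccatcctctagga
Arid3a, intron, gain, chr10:79409418-79409447: aaacccccctacccCGgcccaaactctctc
Bri3, intron, loss, chr5:145019131-145019160: ttggcataagaggcCGgtgtcgcttgtcac
Sp3, intron, loss, chr2:72803807-72803836: caaagcatcaggacCGgagttcagattccc
Adra1a, coding exon, gain, chr14:67256952-67256981: gaggagccaggataCGtgctgttctcagcg
Rai1, coding exon, gain, chr11:59998983-59999012: ccacagcctctgccCGgggcagtgagcaag
Sphk2, coding exon, loss, chr7:52968888-52968917: cttctggctttgggCGtagtcgctgtatgt
Arl4d, coding exon, loss, chr11:101528226-101528255: gctcctacacccgcCGgacagatggactgg
Zfp697, 3′ untranslated exon, gain, chr3:98233176-98233205: tgcaccggtttcttCGctaattcttgaaac
4632428N05Rik, 3′ untranslated exon, gain, chr10:59834223-59834252: caaaagagcaacccCGgggctaccctactt
Jam2, 3′ untranslated exon, loss, chr16:84825398-84825427: ttcacttgtctctaCGcttggatcccggcc
Shmt1, 3′ untranslated exon, loss, chr11:60602591-60602620: ggttcacagggtccCGgaacaatcctaccc
Afp, intron, gain, chr5:90933939-90933968: aacactcacgatgaCGaggtaaaaatgttt

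In the windows of Arid3a, Bri3, Sp3, Rai1, Arl4d, 4632428N05Rik and Shmt1 the measured CpG is the centre of a CCGG, a cutting site of restriction enzymes used for RRBS. Of all members 70.3% lay inside a CCGG, against 39.7% of the gene-body CpGs with more measured neighbours. The median GC content of the sequence within 200 bp of a member was 50% in introns, 55.2% in coding exons and 52.5% in untranslated exons. The median number of other CpGs within 200 bp in mm9 was 6, 9 and 7 in the same order. The median member lay 17.4 kb from the nearest start site, and the members fell in 9611 genes.

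Values were deposited as a fraction of methylated reads, and the depth behind each value is unknown. The share of all table CpGs without a value was at most 0.193% in every E18.5 library, lay between 0.0158 and 14.6% in the P1 libraries, and lay between 0.0214 and 40.9% in those of 9 wk. At 9 wk, 3 of the 10 libraries lacked 31.5 to 40.9%. At P1, replicates 6, 8 and 9 stood above the other 6 libraries. Over 30431 highly methylated CpGs of the whole table their means were 88.6 to 89.1%, against 84.6 to 87.5% in the others, 81.7 to 83.2% at E18.5 and 92.3 to 93.2% at 9 wk.

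Sparsely measured gene-body CpGs had higher mean methylation with age in introns, coding exons and untranslated exons on the deposited scale. Scaling by highly methylated CpGs is described with the calls. It left median changes from E18.5 to 9 wk of 1.53, -0.764 and -0.0554 points in these classes. Means per library were taken over the members with a value in all 24 libraries, which were 9372 intron, 1675 coding-exon and 462 untranslated-exon CpGs. In introns the 5 E18.5 libraries had means of 66.1, 65.8, 67.7, 66.3 and 66.5%. The P1 libraries ran from 68.9 over a median of 70.1 to 73.8%, and the 9 wk libraries from 76.3 over 76.5 to 77.2%. No range of 1 age reached that of another, and the group means were 66.5% ± 0.724 (SD, n = 5), 71.0% ± 1.93 (SD, n = 9) and 76.7% ± 0.303 (SD, n = 10).

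Coding exons were the most methylated of the 3 classes at every age. Their E18.5 libraries had means of 70.2, 70.4, 71.6, 70.6 and 70.6%, the P1 libraries ran from 72.9 over 74.0 to 76.8%, and the 9 wk libraries from 79.0 over 79.3 to 80%. Untranslated exons had 65.9, 65.5, 66.7, 65.8 and 66.2% at E18.5, from 67.4 over 68.9 to 71.8% at P1 and from 74.3 over 75.2 to 75.7% at 9 wk. In both classes the 3 ages were again fully separate. The rise from E18.5 to 9 wk was 10.2 points in introns, 8.69 in coding exons and 9.11 in untranslated exons. It was 10.2 points in CpGs outside genes and 9.14 over all autosomal CpGs. Gene-body CpGs with more measured neighbours rose by 8.12 points, and CpGs within 1 kb of start sites by 6.17. In every class the 3 highest P1 libraries were replicates 6, 8 and 9, the same libraries that stood apart over the whole table.

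**Figure D1:**
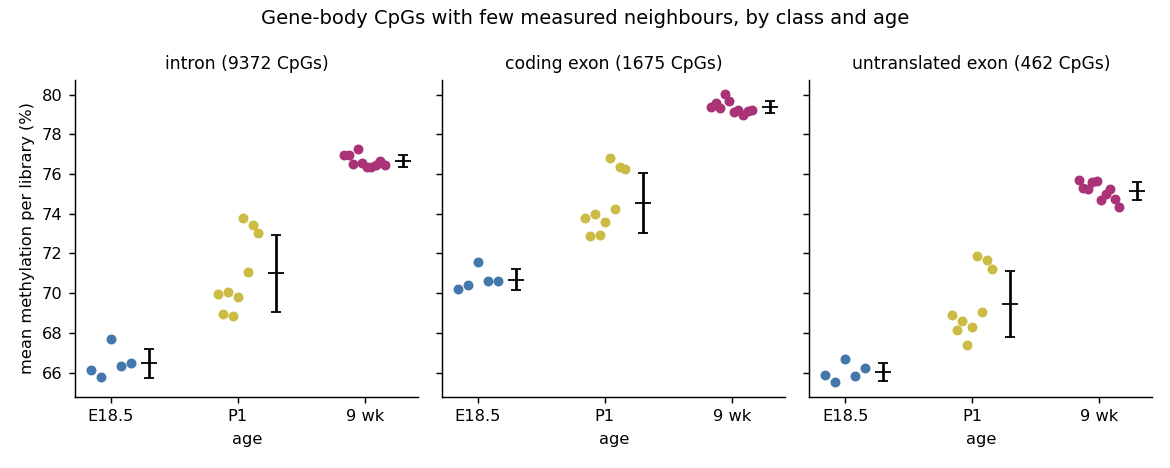
Mean methylation in percent (vertical axis) of the sparsely measured gene-body CpGs of each class, with 1 point per library at E18.5, P1 and 9 wk, and the mean and SD in black. In each class every 9 wk library lies above every P1 library and every P1 library above every E18.5 library, and coding exons are highest, from 70.7% at E18.5 to 79.4% at 9 wk.

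The lead of coding exons over introns was present in all 24 libraries and was smaller at later ages. In the E18.5 libraries it averaged 4.22 points ± 0.286 (SD, n = 5), in the newborn libraries 3.53 points ± 0.439 (SD, n = 9) and in the adult libraries 2.72 points ± 0.204 (SD, n = 10). The lowest gap at E18.5 was 3.90 points and the highest at 9 wk was 3.09 points, so these ranges did not overlap, whereas the P1 libraries spanned 2.95 to 4.04 points. Coding exons also led introns among gene-body CpGs with more measured neighbours, with 72.4% against 67.1% at E18.5 and 79.7% against 75.9% at 9 wk. Among the members, untranslated exons lay below introns in all 24 libraries. The untranslated-exon mean minus the intron mean was -0.446 points ± 0.329 (SD, n = 5) before birth, -1.54 points ± 0.397 (SD, n = 9) in newborns and -1.51 points ± 0.362 (SD, n = 10) in adults. Within genes, 405 had at least 1 fully measured member in a coding exon and in an intron. The coding exon was the higher in 269 of them (66.4%) at E18.5, in 270 (66.7%) at P1 and in 254 (62.7%) at 9 wk, with median differences of 6.62, 5.82 and 3.27 points. In the 34 genes with at least 3 such CpGs in each class the medians were 8.79, 7.42 and 8.55 points, so the smaller gap at 9 wk was not seen there.

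The shape of the distribution moved with the means. Of the 11669 fully measured members, 31.2% were over 80% methylated at E18.5, 48.2% at P1 and 63.8% at 9 wk. The share over 90% was 4.88%, 13.5% and 41.3% at these ages. Nearly unmethylated members, under 20%, stayed close in number, with 6.23%, 5.73% and 6.14%. Coding exons held more of both ends than introns at E18.5, with 7.94% against 5.71% under 20% and 9.97% against 3.94% over 90%. The median SD of 1 CpG between libraries was 5.00 points at E18.5, 7.63 at P1 and 7.53 at 9 wk.

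Between E18.5 and 9 wk, most of the tested members gained methylation and few lost it. Each CpG was tested with limma over the whole table, and called where the Benjamini-Hochberg adjusted p was at most 0.1 and the change exceeded 5 points. Of 55022 members, 50274 had enough values to be tested, and 31242 (62.1%) gained while 3278 (6.52%) lost. Over all 249729 CpGs tested in the table, 58.5% gained and 6.46% lost. The median change was 10.6 points in the members and 9.68 points over all tested CpGs.

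In introns 25104 of 39561 tested CpGs gained (63.5%) and 2724 lost (6.89%), with a median change of 11.1 points. In coding exons 4569 of 7895 gained (57.9%) and 354 lost (4.48%), with a median of 8.96 points. In untranslated exons 1182 of 2125 gained (55.6%) and 146 lost (6.87%), with a median of 9.09 points. The intron share lay above the table's share of gains, and both exon shares lay slightly below it. Whether the classes differ was not tested, since CpGs of the same libraries are not replicates. The 5′ side of untranslated exons had more losses in proportion, 17 of 121 tested CpGs (14%) beside 56 gains (46.3%).

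These directions depend on the scale between libraries. Highly methylated CpGs of the whole table rose with age as well, and dividing each library by their mean left 9266 gains and 6718 losses among the members, so that gains made up 58.0% of calls in place of 90.5%. Under that scaling introns still had more gains than losses, with 7781 and 5042, whereas coding exons had 1029 gains and 1203 losses and untranslated exons 338 and 349. The median changes became 1.53, -0.764 and -0.0554 points in introns, coding exons and untranslated exons. Over all tested CpGs the scaling moved the median change from 9.68 to 0.524 points. The scaled values thus describe changes relative to the rise of the highly methylated CpGs. A CpG that stays level on the deposited scale falls when scaled, so part of the scaled losses follows from the divisor.

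**Figure D2:**
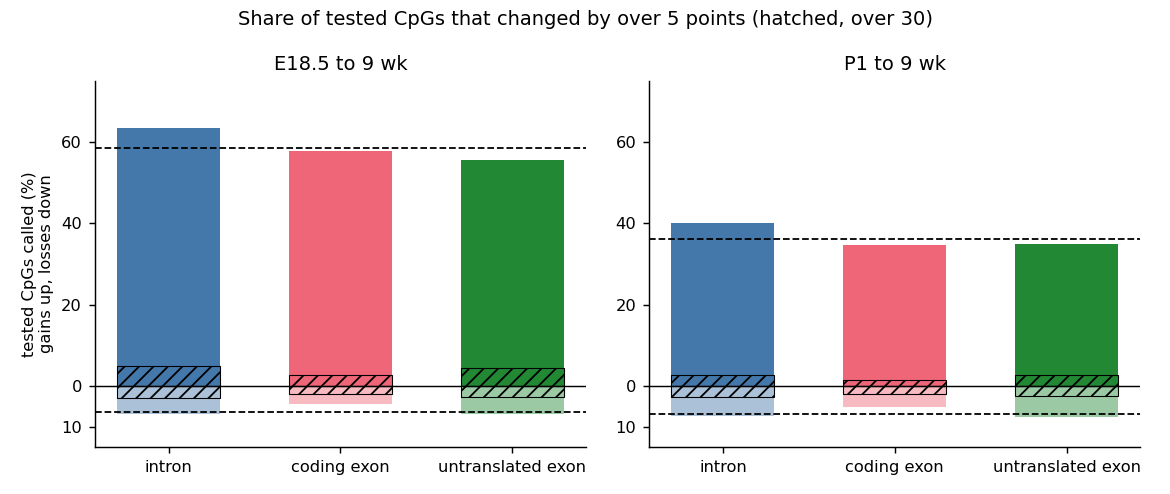
Percent of tested CpGs called as gains (upward) and losses (downward, paler) by over 5 points for each class, with E18.5 against 9 wk on the left, P1 against 9 wk on the right and calls over 30 points hatched. Dashed lines give the same shares over the whole table, 58.5% and 6.46% on the left and 36.1% and 7.0% on the right. On the deposited scale introns lie above the line for gains and both exon classes below it.

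Large changes were less one-sided. By over 30 points, 2229 members gained (4.43%) and 1363 lost (2.71%), where the table had 4.69% and 2.24%. Introns had 1900 gains (4.80%) and 1133 losses (2.86%), coding exons 205 (2.60%) and 151 (1.91%), and untranslated exons 95 (4.47%) and 60 (2.82%). On the 5′ side of untranslated exons 3 gained and 11 lost by this much. Scaled by highly methylated CpGs, losses over 30 points outnumbered gains, with 1840 against 1232.

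A stricter description asks for ages whose libraries do not overlap. In introns 23.6% of the 10808 CpGs with a value in every E18.5 and 9 wk library had every adult library above every embryonic one, and 3.62% had every adult library below. The shares over the table were 19.5% and 3.08%. Coding exons had 18.1% and 2.42%, and untranslated exons 20.3% and 3.10%.

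The rule for named CpGs takes only those whose E18.5 and 9 wk ranges do not overlap. The separation of these ages was therefore set by selection in every CpG named for them. Among intron CpGs the largest gain named by the rule was in Myh14, a non-muscle myosin heavy chain gene, in intron 35 of 40. Its 5 E18.5 libraries had 10.3, 2.86, 11.2, 8.16 and 0% methylation. The P1 libraries ran from 0 over 8.33 to 23.1% and the 9 wk libraries from 58.3 over 74.1 to 93.8%. All adult libraries lay far above all others, and the gain was 68.5 points ± 5.07 (SE, with a limma adjusted p of 2.65e-08). Arid3a, a DNA-binding protein gene of the ARID family, gained 66.9 points in intron 4 of 8, from 12.9% ± 5.12 (SD, n = 5) to 79.8% ± 5.57 (SD, n = 10). Snx29, a sorting nexin gene, gained 63.1 points in intron 10 of 13.

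The largest intron loss was in Bri3, in intron 2 of 2. It had 78.3, 81.8, 80.9, 83.8 and 76.3% at E18.5, from 55.6 over 71.2 to 85.2% in the 8 P1 libraries with a value, and from 0 over 5.16 to 14.8% at 9 wk. All embryonic and newborn libraries lay far above all adult ones, with a change of -73.4 points (SE 2.92, with a limma adjusted p of 5.22e-10). Sp3, a zinc finger transcription factor gene, changed by -70.8 points in intron 4 of 6, Smcr7 by -67.4 points in intron 1 of 3, and 2010111I01Rik by -62.1 points in intron 12 of 14. At E18.5 the lowest library had 89.8% in Sp3 and 88.3% in Smcr7, while 2010111I01Rik ranged from 59.4 to 76.9%.

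In coding exons the largest gain was in Adra1a, an alpha adrenergic receptor gene, in exon 2 of 4. The E18.5 libraries had 7.69, 1.56, 6.2, 7.5 and 7.84%, the P1 libraries ran from 0 over 7.69 to 18.2%, and the 9 wk libraries from 50 over 69.2 to 95.2%. The gain of 63.5 points ± 5.94 (SE, with a limma adjusted p of 3.08e-07) separated the adult libraries from all others, and the P1 range enclosed the E18.5 range. Arntl, a core gene of the circadian clock, moved from 6.85% ± 2.99 (SD, n = 5) to 55.4% ± 11.2 (SD, n = 10) in exon 13 of 21. Rai1 gained 57.9 points in exon 3 of 6, and Ccdc9 gained 47.4 points in its last exon.

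The largest coding-exon loss was in Sphk2, a sphingosine kinase gene, in exon 3 of 7. It had 95.8, 90.4, 91.7, 91.0 and 97.7% at E18.5, from 85.0 over 90.3 to 96.8% at P1, and from 14.3 over 27.6 to 37.1% at 9 wk. The newborn libraries overlapped the embryonic ones and the adult ones lay far below, with a change of -67.8 points (SE 3.82, with a limma adjusted p of 2.17e-09). Arl4d, a small GTPase gene, changed by -59.0 points, Arhgdia by -56.6 points, and Tob1, an antiproliferative gene, by -55.1 points. These 4 CpGs lay between 1385 and 2694 bp from the nearest start site.

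In untranslated exons the CpGs named for E18.5 to 9 wk were all on the 3′ side. Zfp697, a zinc finger gene, had 10.7, 15.4, 10.9, 12.7 and 17.4% at E18.5, from 7.14 over 23.5 to 37.3% at P1 and from 41.2 over 65.2 to 100% at 9 wk, a gain of 52.3 points ± 6.70 (SE, with a limma adjusted p of 8.94e-06). The adult libraries varied widely here, with an SD of 16.4 points, though the rule required that none reached down to the embryonic ones. Jam2, a junctional adhesion molecule gene, had 75, 79.2, 69.8, 72.1 and 80% at E18.5, from 63.6 over 79.7 to 82.4% in 8 P1 libraries and from 4.35 over 20.6 to 31.2% at 9 wk, a change of -55.6 points (SE 4.15, with a limma adjusted p of 2.96e-08). Among the others, 4632428N05Rik, Wdr54 and Trpm2, the last a calcium channel gene, gained 42.6 to 51.1 points. Shmt1, a folate enzyme gene, Syf2, a splicing factor gene, and Kif1b, a kinesin gene, changed by -44.7, -42.0 and -40.1 points.

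**Figure D3:**
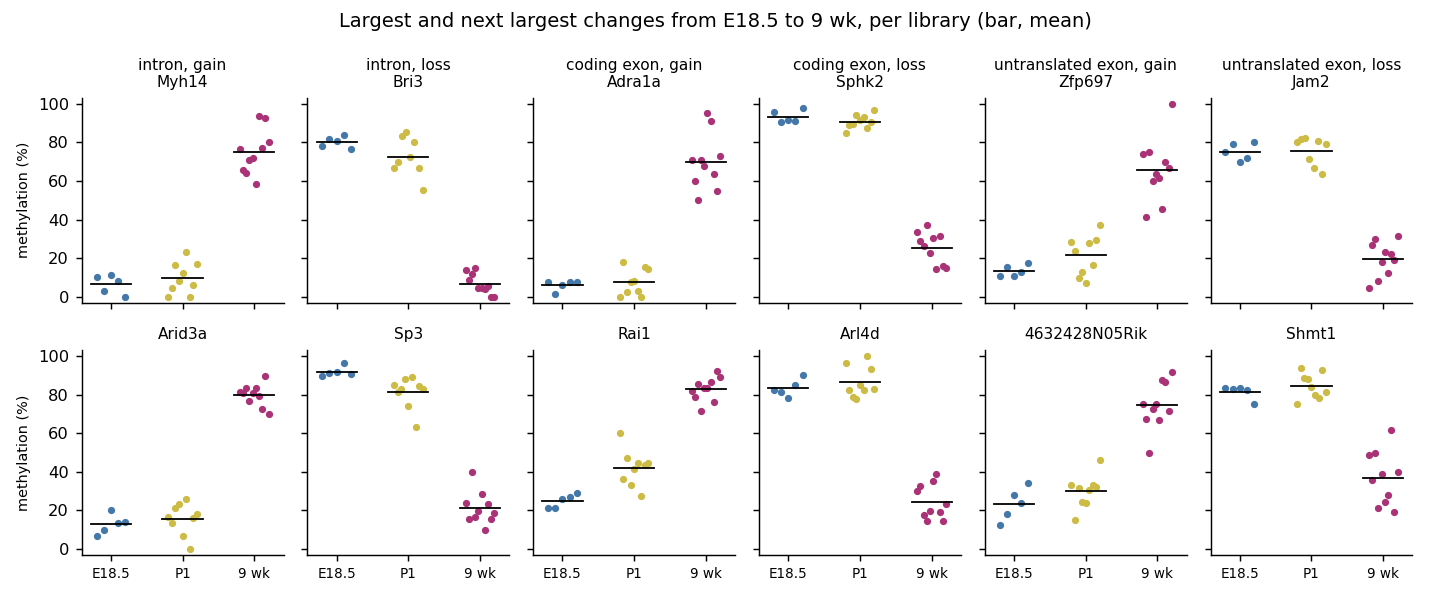
Methylation in percent (vertical axis) of the CpGs with the largest and next largest gain and loss of each class from E18.5 to 9 wk, 12 in all, with 1 point per library and a bar at the mean of each age. Columns give the class and direction. The adult libraries lie apart from the embryonic ones in all 12 because the selection rule required it. The P1 libraries did not enter that rule, and most lie near the embryonic level, as in Sphk2 (85.0 to 96.8%) and Adra1a (0 to 18.2%).

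Over all fully measured members the mean rose by 4.38 points between E18.5 and P1 and by 5.52 points between P1 and 9 wk, so 44.2% of the whole rise was in place at P1. Scaled by highly methylated CpGs, the median change of all tested members from E18.5 to P1 was 0.212 points. The shares in place at P1 are given on the deposited scale and are not corrected for the general rise. Of the members called over 30 points, 532 gains and 303 losses had a value in all 24 libraries. The gains averaged 37% ± 1.33 (SD, n = 5) before birth, 44.5% ± 4.15 (SD, n = 9) in newborns and 76.4% ± 0.670 (SD, n = 10) in adults, with 19.2% of the change in place at P1. The losses averaged 67.1% ± 0.232 (SD, n = 5), 65.7% ± 1.5 (SD, n = 9) and 26.2% ± 1.46 (SD, n = 10), with 3.56% in place at P1.

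The E18.5 and 9 wk levels of these CpGs follow from how they were selected, and the P1 level does not. The shares in place at P1 use the selected E18.5 and 9 wk levels, so selection enters these shares as well. For the losses the P1 libraries ran from 63.4 to 67.9% and the E18.5 libraries from 66.9 to 67.5%, so these ranges overlapped. For the gains the P1 libraries began at 40.5%, above the highest E18.5 library at 39.2%. The share in place at P1 was 18.9% for intron gains, 22.6% for coding-exon gains and 18% for untranslated-exon gains. For losses it was 3.63% in introns and 2.75% in coding exons.

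**Figure D4:**
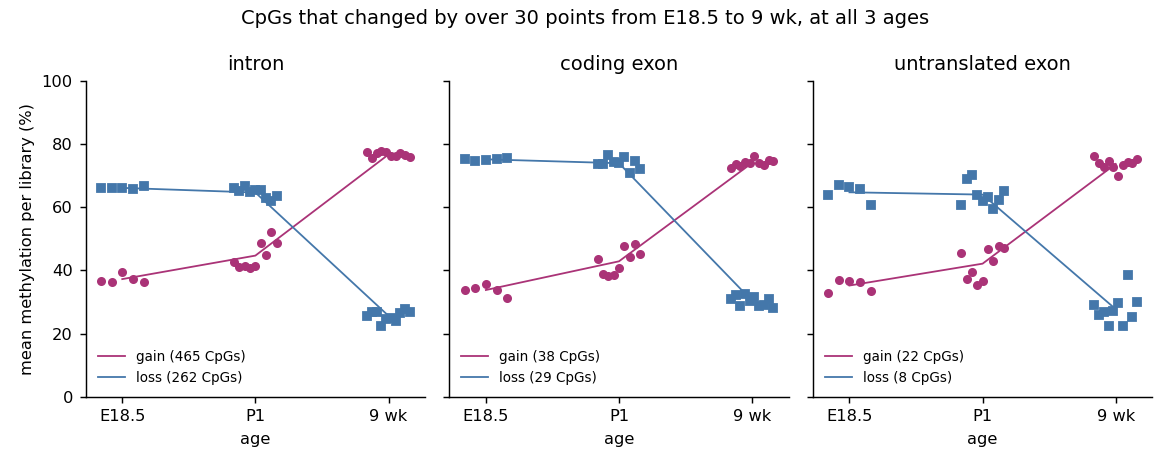
Mean methylation in percent per library (vertical axis) of members called over 30 points from E18.5 to 9 wk and measured in every library, by class, at the 3 ages, with circles for gains, squares for losses and lines through the means. Losses stay near their embryonic level at P1 (65.7% over all classes) and fall to 26.2% at 9 wk, while gains rise from 37% over 44.5% to 76.4%. These levels are on the deposited scale, on which the mean of all fully measured members rose by 4.38 points from E18.5 to P1.

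From P1 to 9 wk, 44929 members were tested, 17506 gained (39.0%) and 3187 lost (7.09%), against 36.1% and 7.0% of all tested CpGs. The adult libraries are the same as in the comparison with E18.5. Introns had 14199 gains (40.1%) and 2630 losses (7.42%), coding exons 2418 (34.5%) and 359 (5.13%), and untranslated exons 662 (34.9%) and 146 (7.70%). The median change was 6.10 points in the members and 5.56 points over all tested CpGs. By over 30 points 1105 members gained (2.46%) and 1183 lost (2.63%), against 3.12% and 2.13% in the table, so that losses slightly outnumbered gains. Whether the members differ from the table was not tested.

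Scaled by highly methylated CpGs the members had 5745 gains and 4473 losses from P1 to 9 wk, which is 56.2% gains in place of 84.6%, and the median change of coding exons turned to -0.208 points. In this comparison the rule named a second Sphk2 CpG, 6 bp from the first, at chr7:52968908. It ran from 87.9 over 93.3 to 100% at P1 and from 14.3 over 26.6 to 34.3% at 9 wk, a change of -67.9 points (SE 2.97, with a limma adjusted p of 1.28e-12). It also named Prox1, a homeobox gene of liver and lymphatic development, at a 5′ untranslated exon on chromosome 1, which changed by -39.2 points (SE 3.54, with a limma adjusted p of 1.34e-08). Prox1 averaged 70.4% ± 7.13 (SD, n = 9) in newborns and 31.2% ± 8.25 (SD, n = 10) in adults.

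Between E18.5 and P1 few single CpGs passed the test, although the class means did not overlap. Of 54696 members tested, 370 gained (0.676%) and 7 lost (0.0128%), against 0.54% and 0.0119% of all tested CpGs. The 7 losses were all in introns, the gains were 306 in introns, 45 in coding exons and 16 in untranslated exons, and 3 lay in exons of non-coding transcripts. The median change was 4.33 points in introns, 3.58 in coding exons and 3.32 in untranslated exons. Without P1 replicate 6, 8 or 9, or without any 1 of the 5 E18.5 libraries, 0 members were called. Without 1 of the other P1 libraries the count ran from 318 to 967, and on the scale of highly methylated CpGs it was 0, with medians of -0.581 points in coding exons and -0.507 in untranslated exons.

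The CpGs named for this interval were all in introns. Osgin1, a gene induced by oxidative stress, had 48.0, 60, 44.2, 56.8 and 40% at E18.5 and ran from 58.3 over 80.6 to 100% at P1, so that the ranges overlapped slightly, with a gain of 30.4 points (SE 5.46, with a limma adjusted p of 0.084). Dock1, which encodes an activator of Rac, gained 27.8 points (SE 5.02, with a limma adjusted p of 0.084). Rxra, the shared partner of many nuclear receptors, had 55.6, 57.6, 56.3, 50.7 and 50% at E18.5 and from 14.8 over 30.4 to 46.4% at P1, a change of -21.8 points (SE 4.81, with a limma adjusted p of 0.0877). At 9 wk its libraries ran from 0 to 23.8%, lower still. The uncharacterised gene 2900026A02Rik changed by -19.98 points (SE 4.13, with a limma adjusted p of 0.084). None of these 4 calls held without P1 replicate 6, 8 or 9.

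Calls differed in frequency with the methylation level. Grouped by their P1 level, which enters neither side of the comparison of E18.5 with 9 wk, 31.9% of members under 20% gained and 5.54% lost. Between 20 and 40% the shares were 53.5% and 15.7%, between 40 and 60% they were 49.2% and 19.2%, between 60 and 80% they were 61.4% and 8.43%, and from 80% up they were 69.1% and 2.24%. Losses were thus most frequent at intermediate levels, but part of this pattern is set by the bounds of the scale and by the filter. Under 20% losses over 30 points made up 0% of the members, and from 80% up gains over 30 points made up 0.149%. A member was tested only if an E18.5 or 9 wk library reached 10%, so low members could enter through the age where they were high. Gains over 30 points were most frequent between 20 and 40%, with 27.9% of the members tested there. From 80% up, introns gained at 71.4%, coding exons at 62.6% and untranslated exons at 61.8%, and the classes were closer between 60 and 80%, with 61.9%, 59.0% and 59.5%.

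**Figure D5:**
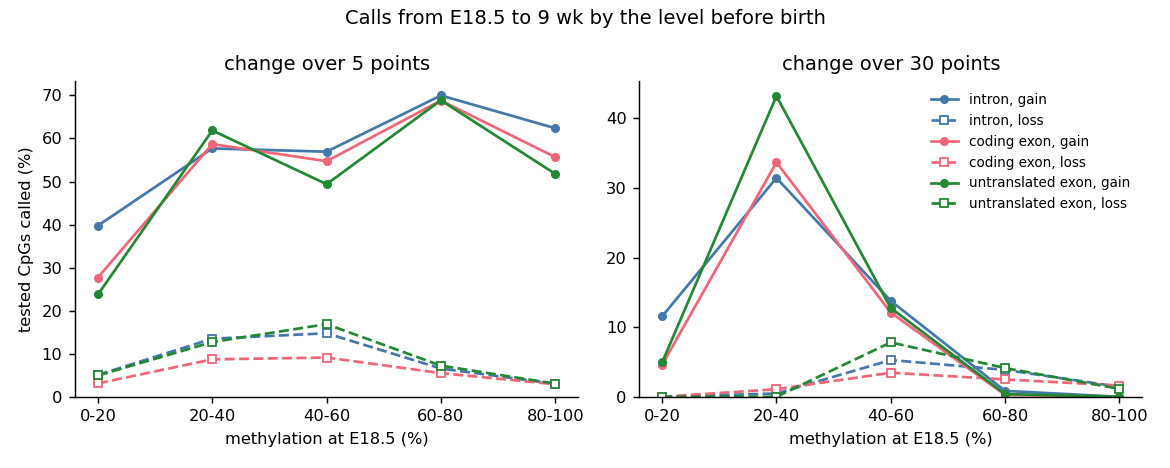
Percent of tested members called from E18.5 to 9 wk (vertical axis) as gains (filled circles) and losses (open squares) of over 5 points (left) and over 30 points (right), by class and by the E18.5 level in percent. Gains over 30 points peak at 20 to 40%, where 32.1% of all tested members had one, and losses over 5 points peak at 40 to 60%, with 14.2%. The E18.5 level is itself one side of this comparison.

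Position within the gene and the surrounding sequence went with the calls as well. Within 5 kb of their gene's start 51.1% of members gained and 9.74% lost, against 67.1% and 4.81% at 50 kb or more. Losses over 30 points were 4.03% and 1.84% in these zones. First introns had 58.4% gains and 9.87% losses, and later introns 65.5% and 5.73%. The same order of losses held in coding exons, with 8.08% under 5 kb and 2.90% from 50 kb up, and in untranslated exons, with 11.5% and 5.31%. These are descriptions over CpGs and were not tested.

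Members that were also isolated in the mm9 sequence gained more often. With at most 2 other CpGs within 200 bp in mm9, 73.0% gained and 4.92% lost, with a median change of 13.7 points. With over 10, 50.3% gained and 5.09% lost, with a median of 7.77 points. The number of measured neighbours made less difference, with gains of 62.2%, 62.5% and 61.7% for 0, 1 and 2 of them. Members inside a CCGG gained at 61.1% and lost at 6.75%, and those outside at 64.6% and 5.97%. The median change was 10.5 points inside and 11.0 points outside.

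Calls of neighbouring CpGs were compared next. Each member was paired with the next tested member at a higher position, keeping 1 strand per CpG. Neighbours at lower positions and CpGs outside the members were not considered. Of the members with a gain over 30 points, counted with 1 strand per CpG, 1046 had such a next member within 200 bp. It was called in the same direction for 94.8% of them, over 30 points for 54.0%, and in the opposite direction for 1. Of all tested CpGs 58.5% gained, 4.69% by over 30 points, and 6.46% lost, so agreement among gains and few opposite calls are frequent in any case. Of the losses over 30 points, 594 had such a neighbour, which was called the same way for 92.3%, over 30 points for 71.4%, and the opposite way for 6, where 6.46% of all tested CpGs lost and 2.24% lost over 30 points. For 221 pairs both strands of 1 CpG were tested, and the median absolute difference between the strands' changes was 3.68 points. Neighbouring CpGs can share reads and cells, so these are not independent measurements.

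Large changes were spread over many genes. Of 9386 genes with a tested member, with a median of 3 each, 1909 had a change over 30 points, 1303 a gain, 795 a loss and 189 both. The most gains over 30 points were in Gm20388, with 61, and so were the most losses, with 30. That gene model spans 4435 kb of chromosome 8 and holds 72 other protein-coding genes, and of its 677 tested members 429 lay in it alone.

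The genes below were picked for their counts of gains over 30 points, which 4.69% of all tested CpGs had. Among genes of more usual extent, Tshz2, a zinc finger homeobox gene, had 10 gains over 30 points among 52 tested members. These 10 intron CpGs averaged 40.7% at E18.5, 48.9% at P1 and 75.9% at 9 wk. Maml3, a co-activator gene of Notch signalling, had 8 of 47, of which 3 were in its 3′ untranslated exon, and they averaged 31.4%, 41% and 80%. Gabbr2, a subunit of the GABA-B receptor, had 8 of 41, averaging 34.5%, 44.5% and 77.9%. Fgfr2, a fibroblast growth factor receptor, also had 8 among 185, but the annotated model spans 3009 kb and holds 31 other protein-coding genes.

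Some genes also had many losses over 30 points, and in Hs6st1 and Ece1 these lay close together. The genes were picked for such counts, and 2.24% of all tested CpGs lost by this much. Sept9, a cytoskeletal septin gene, had 14 losses over 30 points among 45 tested members, all in introns, averaging 59.7% at E18.5, 59.2% at P1 and 17.4% at 9 wk. Hs6st1, a heparan sulfate sulfotransferase gene, had 8 of 10 between positions 36130610 and 36132885 of chromosome 1, averaging 78.2%, 71.5% and 20.4%. Ece1, the endothelin-converting enzyme gene, had 6 of 26 within chr4:137498494-137499158, averaging 68.2%, 66.8% and 21.9%. In these genes the P1 averages lay near those of E18.5, and in Sept9 and Ece1 other members gained, with 19 and 11.

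Among genes for hepatocyte enzymes and secreted proteins, losses were frequent beside gains. Of 129 tested members in 38 genes, 62 gained (48.1%) and 34 lost (26.4%), against 58.5% and 6.46% of all tested CpGs, with a median change of 7.29 points. By over 30 points 9 gained (6.98%) and 14 lost (10.9%), against 4.69% and 2.24% of all tested CpGs. Losses were present in 19 of the 38 genes, and whether the list differs from other genes was not tested. Scaled by highly methylated CpGs, the list had 18 gains and 46 losses, so losses then outnumbered gains.

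The largest gain of this list was in Afp, which encodes alpha-fetoprotein, the main serum protein of the fetal liver, in intron 10 of 14. It had 15.9, 4.17, 5.52, 9.20 and 3.45% at E18.5, from 5.56 over 11.5 to 15.8% at P1 and from 48.6 over 61.3 to 70.6% at 9 wk. Fetal and newborn livers overlapped and all adult livers lay higher, with a gain of 53.0 points (SE 3.70, with a limma adjusted p of 1.53e-08). All 3 tested members of Afp gained over 30 points. The largest loss was in Abcc2, which encodes a bile canalicular export pump, in coding exon 15 of 32. It had 76.7, 79.5, 85.1, 82.5 and 96.7% at E18.5, from 74.1 over 80 to 87.0% at P1 and from 18.2 over 29.4 to 47.6% in 9 libraries at 9 wk, a change of -53.5 points (SE 4.85, with a limma adjusted p of 3.39e-07).

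Other genes of the list, chosen after their values were seen, lost at every called member. All 3 tested members lost in Ahsg, which encodes the plasma protein fetuin-A, averaging 61.1% at E18.5, 59.6% at P1 and 18.51% at 9 wk. All 3 lost in Hpd, an enzyme gene of tyrosine breakdown, averaging 62.6%, 60.5% and 33.0%. In Ass1, a urea cycle gene, 3 of 6 lost. The 1 tested member of Cpt1a, the carnitine palmitoyltransferase gene of fatty acid oxidation, changed by -36.2 points. Against this, all 3 tested members of G6pc gained, averaging 69.8% at E18.5 and 85.1% at 9 wk, as did all 4 of Mttp, a lipoprotein assembly gene, averaging 80% and 94.5%.

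Liver transcription factors and nuclear receptors had 255 gains (62.7%) and 58 losses (14.3%) among 407 tested members in 47 genes, against 58.5% and 6.46% of all tested CpGs, with a median change of 11.9 points. By over 30 points 30 gained (7.37%) and 28 lost (6.88%), against 4.69% and 2.24% of all tested CpGs. On the scaled values there were 107 gains and 82 losses. In Stat3 the CpG with the largest gain rose by 53.0 points in intron 21 of 23, from 35.3% ± 5.33 (SD, n = 5) to 88.2% ± 11.0 (SD, n = 10), at a limma adjusted p of 2.73e-07. In Esr1, the estrogen receptor gene, the CpG with the largest loss had 69.2, 78.3, 76.1, 69.5 and 63.0% at E18.5, from 52.6 over 70.8 to 84.3% at P1 and from 0 over 10.3 to 26.7% in 8 libraries at 9 wk, a change of -61.0 points (SE 4.64, with a limma adjusted p of 9.54e-08).

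Some genes of this list, chosen after their values were seen, went mostly one way. Srebf1, a lipid synthesis regulator gene, lost at 3 of 4 tested members, averaging 73.2% at E18.5, 70.4% at P1 and 39.7% at 9 wk. Foxa3 lost at 4 of 7, Thra at 3 of 4, Klf15 at 2 of 2 and Ppara, a regulator of fatty acid oxidation, at 2 of 3. In the opposite direction Esrrg gained at 32 of 33, Rora at 39 of 49, Cux2 at 33 of 40 and Thrb at 7 of 7. The thyroid hormone receptor genes Thra and Thrb thus differed in direction at the members tested, with median changes of -17.5 and 23.7 points.

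Blood-forming genes had 139 gains (50.9%) and 30 losses (11.0%) among 273 tested members, where the whole table had 58.5% and 6.46%, with a median change of 8.86 points, and 50 gains and 63 losses when scaled. Their largest gain, of 64.5 points (SE 5.66, with a limma adjusted p of 3.82e-07), was in intron 3 of Meis1, a homeobox gene of blood stem cells, and their largest loss, of -53.5 points (SE 3.49, with a limma adjusted p of 1.38e-08), in intron 1 of Mecom. Insulin and IGF signalling genes had 107 gains (57.2%) and 23 losses (12.3%) among 187, a share of gains close to the 58.5% of the table beside its 6.46% losses, with a median of 8.78 points, and 30 gains and 43 losses when scaled. Igf2bp2, an RNA-binding protein gene active in fetal growth, had the largest gain, 47.0 points (SE 4.08, with a limma adjusted p of 2.19e-07), and 12 of its 13 tested members gained. Insr, the insulin receptor gene, had the largest loss, with a change of -45.9 points (SE 4.99, with a limma adjusted p of 4.84e-06), and 5 of its 11 tested members lost.

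Imprinted genes, which are expressed from 1 parental copy, had 81 gains (71.7%) and 5 losses (4.42%) among 113 tested members, against 58.5% and 6.46% of all tested CpGs, with a median of 14.4 points, and 33 gains and 8 losses when scaled. Ppp1r9a had the largest gain, from 35.7% ± 2.60 (SD, n = 5) to 91.4% ± 8.94 (SD, n = 10), at a limma adjusted p of 2.15e-08, and Blcap the largest loss, from 80.9% ± 3.52 (SD, n = 5) to 34.6% ± 7.18 (SD, n = 8), at a limma adjusted p of 1.19e-07. The 1 tested member of Snrpn and that of Zrsr1 differed little between the ages by level, with 42.0% and 42.4% in Snrpn and 51.8% and 52.6% in Zrsr1.

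Cell cycle genes had 58 gains (50%) and 7 losses (6.03%) among 116 tested members, where the whole table had 58.5% and 6.46%, with a median of 6.86 points, and 18 gains and 31 losses when scaled. Ccnd3, a cyclin gene, had the largest gain. It had 6.25, 1.89, 5.41, 7.41 and 0% at E18.5, from 0 over 9.52 to 17.2% at P1 and from 46.4 over 72.1 to 85.7% in 8 libraries at 9 wk, a gain of 64.3 points (SE 5.52, with a limma adjusted p of 3.15e-07). E2f8 had the largest loss, with a change of -47.6 points (SE 4.93, with a limma adjusted p of 2.02e-06). Genes of the DNA methylation machinery had 49 gains (58.3%) and 7 losses (8.33%) among 84, shares near the 58.5% and 6.46% of the table, with a median of 10.0 points, and 6 gains and 19 losses when scaled. Dnmt3a, a de novo methyltransferase gene, had the largest gain, 22.5 points in its 3′ untranslated exon (SE 6.07, with a limma adjusted p of 0.00621), and Kdm2b the largest loss, with a change of -44.2 points (SE 6.04, with a limma adjusted p of 3.97e-05).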

How the data were processed

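DNA methylation was measured by RRBS in 24 livers, and the analysis used the 271325 CpGs of the mm9 table, of which 270030 were autosomal. The values were deposited by the authors as a fraction of methylated reads per cytosine and library, with cytosines under 10 reads left empty and no scaling between libraries. The submitters' processing notes name Bismark 0.7.6 and Bowtie2 and the builds mm9 and mm10. Fractions were multiplied to percent. Read counts were not used, so depth and counting error are unknown, and a fraction from few reads moves in coarse steps. The tables also hold the authors' own differences, p-values and q-values, which were not used. The mm10 table and the locus-specific amplicon values were not used here. No column was left without a sample (0 unmapped).

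All 270030 autosomal positions lay at a CpG of mm9. GENCODE vM1 gave genes and start sites of all protein-coding transcripts. Where transcripts differed, coding exon took precedence over untranslated exon, exon of a non-coding transcript and intron.

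CpGs entered a test when 80% or more of the libraries of both ages held a value and at least 1 library reached 10% methylation. The model was fitted with limma 3.58.1 (R 4.3.3) to percent methylation of the 2 ages concerned, with p-values adjusted by Benjamini-Hochberg over all CpGs tested. A call required that the adjusted p was at most 0.1 and that the change exceeded 5 points, or 30 points for large calls. The fit was tested on simulated data. Ages came from the labels, replicate numbers only name libraries, and p-values measure the spread between libraries, since nothing says how animals shared litters. Other steps used data.table (version 1.17.8), Python 3.11.15, numpy 2.4.6, pandas 2.3.3 and matplotlib 3.10.9.

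Named CpGs were, per class and direction, the 4 (E18.5 to 9 wk) or 2 (P1 to 9 wk) with the largest change among called members with all values and ranges that do not overlap, at most 1 per gene. For E18.5 to P1 they were the 2 largest gains and 2 largest losses called over all classes. Named genes were the 5 with the most changes over 30 points in each direction, and in each gene list the genes with the largest called gain and loss. The members and the gene lists were chosen with earlier results of these data known. Alternatives covered the adjusted p threshold, the log-ratio scale, all ages in 1 fit, missing values, scaling, the definitions of few neighbours, class and start site, and single libraries left out. Some of the CpGs and genes that these rules select are not reported here.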

Additional observations from a re-analysis of the deposited data

Results flagged for a closer look

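Values of the named CpGs and the class means were compared within each age, in 99 groups of 4 to 10 libraries, for a library far from the others relative to the range of its group. Chance alone picks out about 1 in 20 groups. The comparison picked out 6, all of them single CpGs and none of them a class mean. In the Sp3 intron CpG, E18.5 replicate 4 had 96.6% where the other 4 libraries had 89.8 to 91.5%. In the Adra1a coding-exon CpG, E18.5 replicate 2 had 1.56% against 6.2 to 7.84%. In the 3′ untranslated exons of Shmt1 and Kif1b, E18.5 replicate 5 was low in both, with 75% against 82.4 to 83.3% and with 53.1% against 72.9 to 78.9%. In the Smcr7 intron CpG, P1 replicate 1 had 60% against 81.5 to 100%. In the Ccdc9 coding-exon CpG, 9 wk replicate 10 had 75% against 90 to 100%. None of the calls of these CpGs between E18.5 and 9 wk was lost when any single library was left out.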

How the results depend on the processing

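Of the alternatives, scaling each library by its highly methylated CpGs moved most. From E18.5 to 9 wk it left 15984 calls (9266 gains, 6718 losses), with 32.4% of tested intron, 28.3% of coding-exon and 32.3% of untranslated-exon CpGs called and medians of 1.53, -0.764 and -0.0554 points. From P1 to 9 wk it left 10218 calls and 5745 gains, with 23.6%, 18% and 23.7% called and medians of 0.828, -0.208 and 0.129 points. From E18.5 to P1 it left 0 calls, 0 gains and 0 losses, 0% in each class, and medians of 0.416, -0.581 and -0.507 points. Scaled class means at E18.5 and 9 wk were 71.4 and 73.0% in introns, 76.0 and 75.6% in coding exons and 71.0 and 71.5% in untranslated exons.

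The E18.5 to P1 calls were the least stable. An adjusted p up to 0.05 and the log-ratio scale each gave 0 calls, gains and losses, 0% in every class, and all ages in 1 fit gave 819 (806 gains, 13 losses; 1.60%, 1.07% and 1.25% of introns, coding and untranslated exons). Left-out libraries gave 0 to 967 calls, 0 to 949 gains and 0 to 18 losses, with class shares of 0 to 1.86%, 0 to 1.36% and 0 to 1.60%, and medians of 4.01 to 4.65, 3.34 to 3.8 and 3.03 to 3.61 points. The 45 named-CpG results that fell short of the threshold were all of the 4 CpGs of this interval, and the other 874 kept direction and call.

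Smaller sets of CpGs gave smaller counts by construction. With at most 2 other CpGs in the mm9 sequence there were 2548 calls (2379 gains, 169 losses) from E18.5 to 9 wk, with medians of 13.7 points in introns and 12.9 in coding exons, 1529 (1353, 176) from P1 to 9 wk, with 7.24 points in coding exons, and 45 (45 gains, 0 losses) from E18.5 to P1, which is 1.26%, 3.03% and 0% of the classes. With no other table CpG they were 6837 (6209, 628; coding exons 8.37 points), 3969 (3394, 575) and 74 (73, 1; untranslated exons 0.235%). CpGs with all values gave 9889 (8991, 898; untranslated exons 9.97 points) and 6260 (5370, 890). With starts of genes alone the untranslated-exon median was 8.45 points. With every member a library measured, intron means were 67.6 and 77.4% at E18.5 and 9 wk, coding exons had 79.7% at 9 wk and untranslated exons 66.7% at E18.5. With 1 class in every transcript, coding exons had 70.2 and 78.7% and untranslated exons 65.2 and 74.1%.

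Leaving out single libraries gave, from E18.5 to 9 wk, 25882 to 32820 calls, 23420 to 29702 gains and 2443 to 3118 losses, with 66.6 to 70.9%, 59.3 to 63.5% and 57.9 to 64.0% of the classes called and medians of 11.0 to 11.4, 8.92 to 9.26 and 8.82 to 9.34 points. From P1 to 9 wk they gave 18762 to 23114, 15647 to 19410 and 3074 to 3704, with 43.1 to 48.0%, 35.8 to 40% and 39.4 to 43.4% called and medians of 6.02 to 6.65, 5.07 to 5.53 and 5.20 to 5.65 points. For E18.5 to 9 wk every such count lay below the 34520 calls, 31242 gains and 3278 losses with all libraries. Leaving out a library also changes which CpGs hold enough values to be tested. Leaving out the 627 members that lie only in 16 gene models holding 5 or more other protein-coding genes, a choice made after seeing the data, gave 34110 calls from E18.5 to 9 wk. No paired analysis was possible because the ages are different animals and the replicate numbers name libraries only in order of deposit. Depth is unknown, so the share of counting error in the spread between libraries could not be given.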

Other observations

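Further genes of the lists, chosen after their values were seen, had members that all moved one way between E18.5 and 9 wk. Of all tested CpGs 58.5% gained and 6.46% lost. Insulin and IGF signalling genes, which include Irs2, had 107 gains and 23 losses, and losses outnumbered gains in 3 of the 31 genes. In Irs2, which encodes an adaptor of the insulin receptor, all 4 tested members lost methylation, and their average was 59.8% at E18.5, 59.3% at P1 and 33.8% at 9 wk. In Cdkn2a, a cell cycle inhibitor gene, all 4 tested members gained, with averages of 10.7%, 15.6% and 50.7%. In both genes the P1 average lay nearer to that of E18.5 than to that of 9 wk.

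Members in exons of non-coding transcripts of protein-coding genes numbered 755, of which 693 were tested between E18.5 and 9 wk. Of these 387 gained (55.8%) and 54 lost (7.79%), with a median change of 9.18 points, close to the 58.5%, 6.46% and 9.68 points of all tested CpGs. Their 160 fully measured CpGs averaged 64.9% at E18.5, 69.1% at P1 and 73.2% at 9 wk.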
